A study of Saccharomyces cerevisiae with 4 samples.

Results

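The genes described here encode the septin ring of the budding yeast neck and proteins that sit on it. They were chosen by name: the septins CDC3, CDC10, CDC11, CDC12 and SHS1, the protein kinases GIN4 and HSL1, and BNI4, which is neither a septin nor a kinase but a scaffold bound to the septins. All 8 named genes were on the array, each with 1 probe set, among 5449 Saccharomyces cerevisiae genes in all, and none of the 8 probe sets carried the suffix that marks probes shared between transcripts. The values came from wild-type yeast of strain W1588-4c grown in YPD, a rich glucose medium, to log phase (OD600 of 0.6 to 0.8). One group of 2 arrays was labelled as treated with 100 µM ebselen, an organoselenium drug that reacts with thiols, for 3 h. The other group of 2 arrays was labelled as treated with DMSO, the solvent of the drug. The labels call the arrays of a group biological replicates and do not say whether they came from separate cultures, so the p-values measure only the spread between these arrays.

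Septins are GTP-binding proteins that join into rods and filaments under the plasma membrane. In budding yeast they form a ring at the site where a bud will emerge, then a collar around the neck between mother and bud, and a split ring at cytokinesis. Cdc10 lies at the centre of the rod, Cdc3 lies next to it, Cdc12 follows Cdc3, and Cdc11 or Shs1 caps the ends. The collar holds a set of kinases of the Nim1 family (Gin4, Hsl1 and Kcc4) that act on septin organization and on the morphogenesis checkpoint, the pathway that delays mitosis when a bud has not formed. It also holds the machinery that lays down the chitin ring and that closes the neck.

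Each value below is a log2 expression level relative to the median of that probe set over the 4 arrays, so it shows which arrays were high or low for a gene and says nothing of how abundant one transcript is against another. Changes are log2 differences, ebselen minus DMSO, with the moderated standard error (SE, n = 2 arrays per group) of limma. A gene passed at an adjusted p under 0.05 (Benjamini-Hochberg over 5449 genes, two-sided). "Rose" and "fell" refer to the arrays labelled ebselen and are used only of genes that passed. All directions depend on the labels being right. Some genes of oxidative stress defence were lower in the arrays labelled ebselen. Examples, named after their values were seen, are the catalase genes CTT1 (−2.86) and CTA1 (−1.43). The glutathione peroxidase genes GPX1 (−2.23), GPX2 (−1.68) and HYR1 (−0.77) were lower too. Among the glutaredoxin genes, picked in the same way, GRX1 (−1.04), GRX2 (−0.73), GRX5 (−0.24), GRX7 (−0.22) and GRX8 (−0.27) were lower. GRX3 (0.12), GRX4 (0.11) and GRX6 (0.24) were not. Genes of oxidative stress defence were not counted as a list here. Over all genes 38.8% fell.

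Transcripts of both neck kinases rose strongly, GIN4 by 4.15-fold and HSL1 by 2.87-fold. BNI4 rose by 1.51-fold, CDC3 was the septin that passed, with a rise of 1.29-fold, and the other 4 septin genes did not pass. In all, 4 of 8 genes rose and 0 fell in the limma fit, with a median difference of 0.25. Over all genes 33.0% rose and 38.8% fell, 71.7% together, with a median difference of −0.03. The CDC3 and BNI4 calls depended on scaling. With scaling on the hybridization controls 2 of the 8 genes rose (GIN4 and HSL1) and 2 fell (CDC11 and CDC12), while 12.3% of all genes rose and 56.7% fell. That scaling adds the replicate gaps of the controls to every gene, so its calls are not comparable with those as deposited. In a mixed culture, a larger share of cells at the stage of the cycle that makes a transcript and more of that transcript per cell cannot be told apart.

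**Figure D1:**
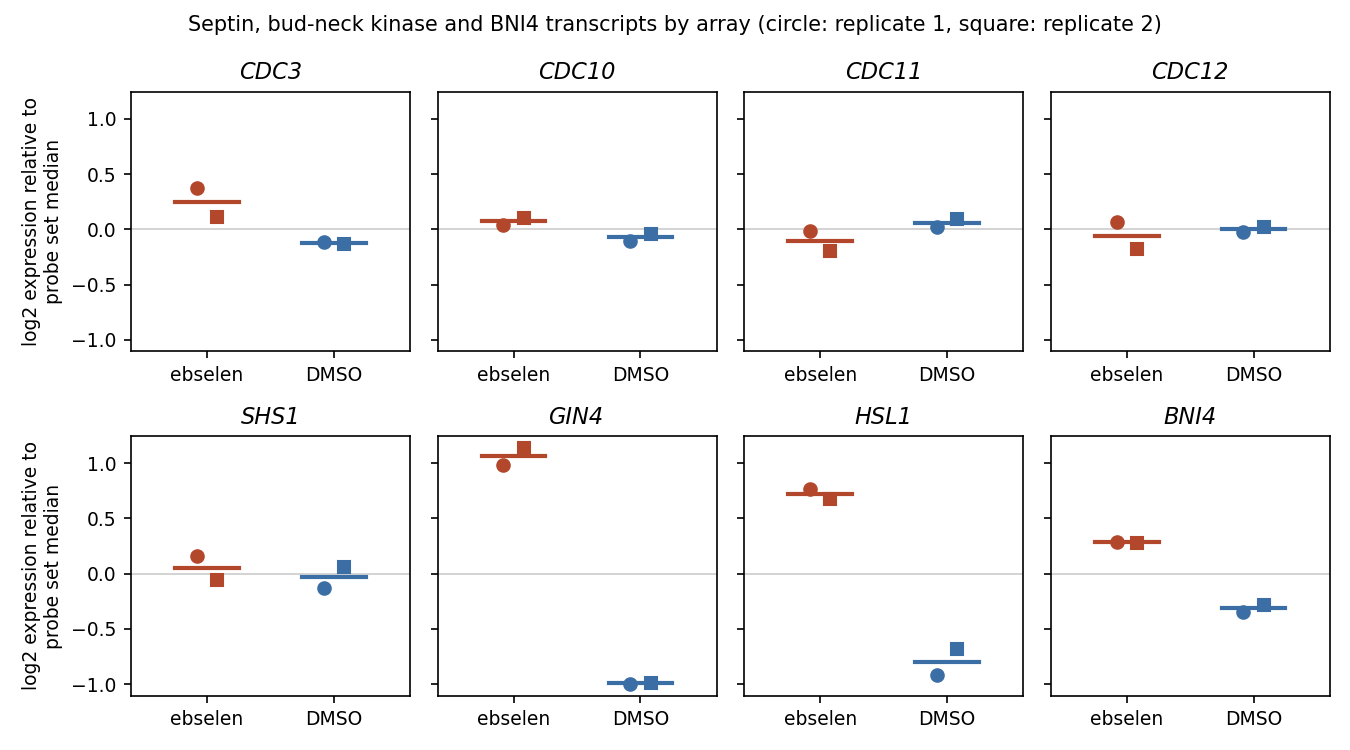
Log2 expression relative to the probe set's median over the 4 arrays (y axis) for each of the 8 genes, with the 2 ebselen arrays left of the 2 DMSO arrays. Circles are replicate 1, squares are replicate 2 and bars are group means. The groups lie far apart for GIN4 and HSL1, apart by a smaller gap for BNI4 and CDC3, and close together or overlapping for CDC10, CDC11, CDC12 and SHS1.

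GIN4 (YDR507C) encodes the Nim1-family kinase that binds Shs1 and is needed for an ordered septin collar. Its level was 0.99 and 1.14 in the ebselen arrays, against −0.998 and −0.986 in the DMSO arrays. Both ebselen arrays lay far above both DMSO arrays, and the arrays of a group differed by at most 0.15. The difference was 2.05 ± 0.068 (95% interval 1.88 to 2.23, limma adjusted p 2.77e-05). It was the 18th highest difference of the 5449 genes.

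HSL1 (YKL101W) encodes the kinase that, together with Hsl7, brings the mitotic inhibitor Swe1 to the septin collar, where Swe1 is marked for destruction. Its level was 0.76 and 0.68 in the ebselen arrays, against −0.92 and −0.68 in the DMSO arrays. The groups again did not overlap, and the wider replicate gap was in DMSO. The difference was 1.52 ± 0.094 (95% interval 1.28 to 1.76, limma adjusted p 0.000126), which placed HSL1 60th from the top of all genes.

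The intervals of GIN4 and HSL1 did not overlap each other. Within an array, GIN4 minus HSL1 was 0.22 and 0.46 in ebselen, against −0.08 and −0.31 in DMSO. GIN4 therefore had the larger change of these kinases in these arrays by 0.53, a difference of changes that was not tested.

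KCC4, the third Nim1-family kinase of the neck and the closest relative of GIN4, belonged to a list of other neck kinases and moved in the same direction. Its level was 0.60 and 0.48 in ebselen arrays, against −0.48 and −0.53 in DMSO arrays. It rose by 1.05 ± 0.063 (limma adjusted p 0.00012), or 2.07-fold. GIN4 minus KCC4 within an array was 0.39 and 0.65 in ebselen, against −0.52 and −0.46 in DMSO, so KCC4 changed by 1.01 less than GIN4. The probe set of KCC4, like that of GIN4, carries no mark of sharing.

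BNI4 (YNL233W) encodes the scaffold that ties chitin synthase III and the phosphatase Glc7 to the septin ring, which sets the position of the chitin ring at bud emergence. Its level was 0.29 and 0.28 in the ebselen arrays, against −0.35 and −0.28 in the DMSO arrays. The groups did not overlap and the replicates lay close together. The rise was 0.60 ± 0.054 (95% interval 0.46 to 0.74, limma adjusted p 0.000398). With scaling on the hybridization controls it was 0.26 and did not pass (adjusted p 0.0698). Its size as deposited was just under 0.603, the 99th percentile of the absolute difference among 1746 fission yeast (Schizosaccharomyces pombe) probe sets that the same arrays carry as a background.

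**Figure D2:**
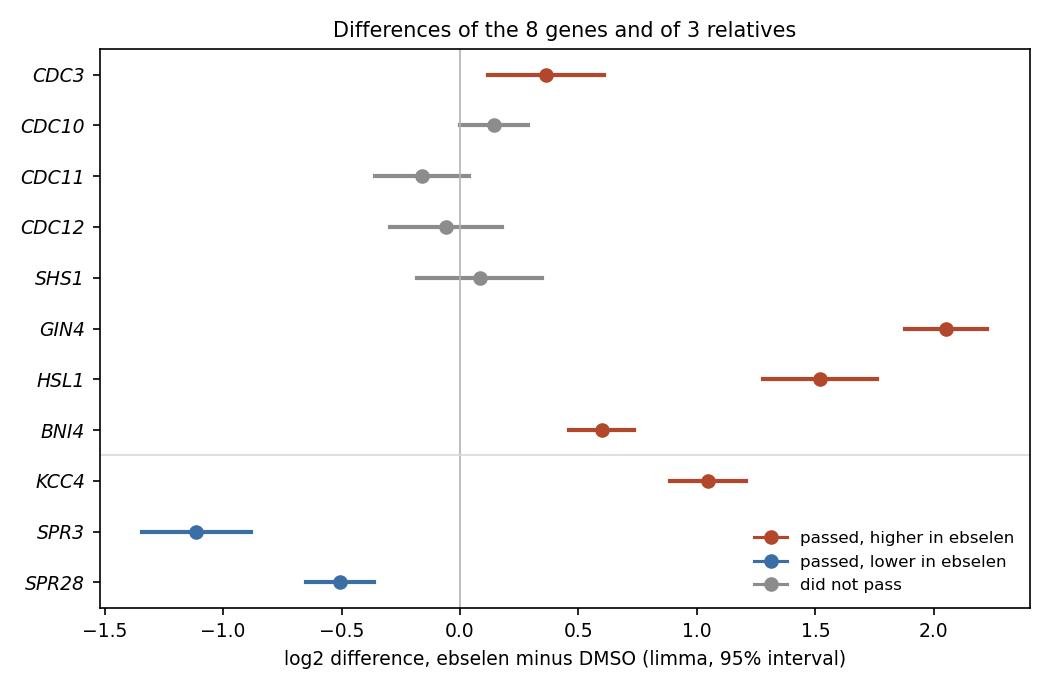
Log2 difference, ebselen minus DMSO, on the x axis, with the limma 95% interval as a bar, for the 8 genes above the grey line and for the kinase KCC4 and the sporulation septins SPR3 and SPR28 below it. GIN4 and HSL1 lie at 2.05 and 1.52, the septin intervals lie near 0, and SPR3 and SPR28 lie below 0.

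Among the septins, CDC3 (YLR314C), an inner subunit of the rod, had a level of 0.37 and 0.11 in the ebselen arrays, against −0.11 and −0.13 in the DMSO arrays. The groups did not overlap, but the ebselen replicates differed by 0.26, more than the gap between the lower ebselen array and the DMSO arrays. It rose by 0.36 ± 0.096 (95% interval 0.12 to 0.61, limma adjusted p 0.0191). This size was within 0.603, the 99th percentile of the fission yeast background, and the adjusted p did not pass a threshold of 0.01. The call was lost without DMSO replicate 2 (adjusted p 0.056), in the fit of all probe sets (0.0579), in the methods' t-test (0.149) and with scaling on the hybridization controls, where the difference was 0.03 (0.865).

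CDC10 (YCR002C), the central subunit, had a level of 0.04 and 0.10 in the ebselen arrays, against −0.10 and −0.04 in the DMSO arrays. Both ebselen arrays lay above both DMSO arrays by a small gap. The difference of 0.14 ± 0.057 (95% interval −0.00 to 0.29) missed the threshold in limma (adjusted p 0.0691). It passed after centring on the median of all genes (0.18, adjusted p 0.0383), and had the opposite sign with scaling on the hybridization controls (−0.19, adjusted p 0.184).

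CDC11 (YJR076C), which caps the ends of the rod, had a level of −0.02 and −0.19 in the ebselen arrays, against 0.02 and 0.09 in the DMSO arrays. The ebselen arrays were the lower ones and replicate 2 of that group stood lowest. The difference was −0.16 ± 0.078 (95% interval −0.36 to 0.04, limma adjusted p 0.119). Without ebselen replicate 1 it was −0.25 and passed as lower (adjusted p 0.0282), and without ebselen replicate 2 it was −0.07 (adjusted p 0.398).

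CDC12 (YHR107C), the partner of Cdc3 and Cdc11 in the rod, had a level of 0.07 and −0.18 in the ebselen arrays, against −0.02 and 0.02 in the DMSO arrays. The ebselen arrays lay on either side of the DMSO arrays. The difference of −0.06 ± 0.093 (95% interval −0.29 to 0.18) did not pass in limma (adjusted p 0.602). It was −0.18 without ebselen replicate 1 and 0.07 without ebselen replicate 2, neither past the test.

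SHS1 (YDL225W), the alternative end subunit and a substrate of Gin4, had a level of 0.16 and −0.06 in the ebselen arrays, against −0.13 and 0.06 in the DMSO arrays. The groups overlapped. The difference was 0.08 ± 0.104 (95% interval −0.18 to 0.35, limma adjusted p 0.50). Leaving out 1 array at a time gave −0.03 to 0.19, none past the test. Missing the threshold does not show that these 4 septins kept their level, and the intervals give the range of change that the arrays allow.

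In the order of the 8 differences, GIN4 stood above HSL1 and HSL1 above BNI4 with intervals that did not overlap. BNI4 and CDC3 overlapped, as did every neighbouring pair below them, namely CDC3, CDC10, SHS1, CDC12 and CDC11. The mean of the septin levels was 0.13 and −0.04 in the ebselen arrays, against −0.07 and 0.00 in the DMSO arrays. The mean of GIN4 and HSL1 minus the septin mean was 0.75 and 0.95 in ebselen, against −0.89 and −0.83 in DMSO, a difference of 1.71 between the groups. A part of the septin values differed between the ebselen replicates together. Replicate 1 exceeded replicate 2 by 0.26 for CDC3, 0.25 for CDC12, 0.22 for SHS1 and 0.18 for CDC11, while CDC10 went the other way by −0.06. The SD of that replicate difference over all genes was 0.143.

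Groups did not overlap for 6 of the 8 genes, 5 with ebselen above and 1 with ebselen below. Over all genes the groups did not overlap for 86.6%, with ebselen above for 40.5% and below for 46.1%. Arrays of different groups differed by an SD over genes of 0.726 to 0.731.

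Coding length moved with the order of the 8 genes. The genes with the 3 largest differences were also the 3 longest, HSL1 with 4557 bases from start to stop codon, GIN4 with 3429 and BNI4 with 2679, while the septin genes ran from 969 (CDC10) to 1656 bases (SHS1). Spearman's rho between length and difference was 0.76 over these 8 genes and 0.19 over all 5449 genes. Of the 461 genes with 3000 bases or more, 57.5% rose and 16.1% fell in the limma fit, and of the 767 genes from 2000 to under 3000 bases, the class of BNI4, 45.9% rose and 22.6% fell. Of the 2134 genes from 1000 to under 2000 bases, which hold all septins except CDC10, 29.8% rose and 42.8% fell. Of the 2087 genes under 1000 bases, the class of CDC10, 26.1% rose and 45.7% fell.

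The array controls also differed between the groups in signal along the transcript. For 8 yeast control transcripts probed at both ends, 5′ minus 3′ signal was lower in ebselen by a mean difference of −0.75 ± 0.26 (SD over 8 transcripts), from −1.11 to −0.35. ACT1, which encodes actin, differed by −0.41 at its 5′ probe set and by −0.05 at its 3′ one. Which end of a transcript the probe sets of the 8 genes interrogate was not known here, and the part of this signal in their values was not tested.

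With the trend on coding length removed, the difference was 1.80 for GIN4, 1.18 for HSL1, 0.43 for BNI4 and 0.40 for CDC3, each past the limma threshold (adjusted p 2.77e-05, 0.000147, 0.000959 and 0.0088). CDC10, the shortest of the 8, then had a difference of 0.30 and passed as higher (adjusted p 0.00723), so that 5 of the 8 genes rose. Over all genes 34.4% rose and 37.4% fell with the trend removed. CDC11 was −0.06, CDC12 was 0.05 and SHS1 was 0.10, none of which passed. The trend itself amounted to 0.34 at the length of HSL1 and 0.25 at that of GIN4.

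**Figure D3:**
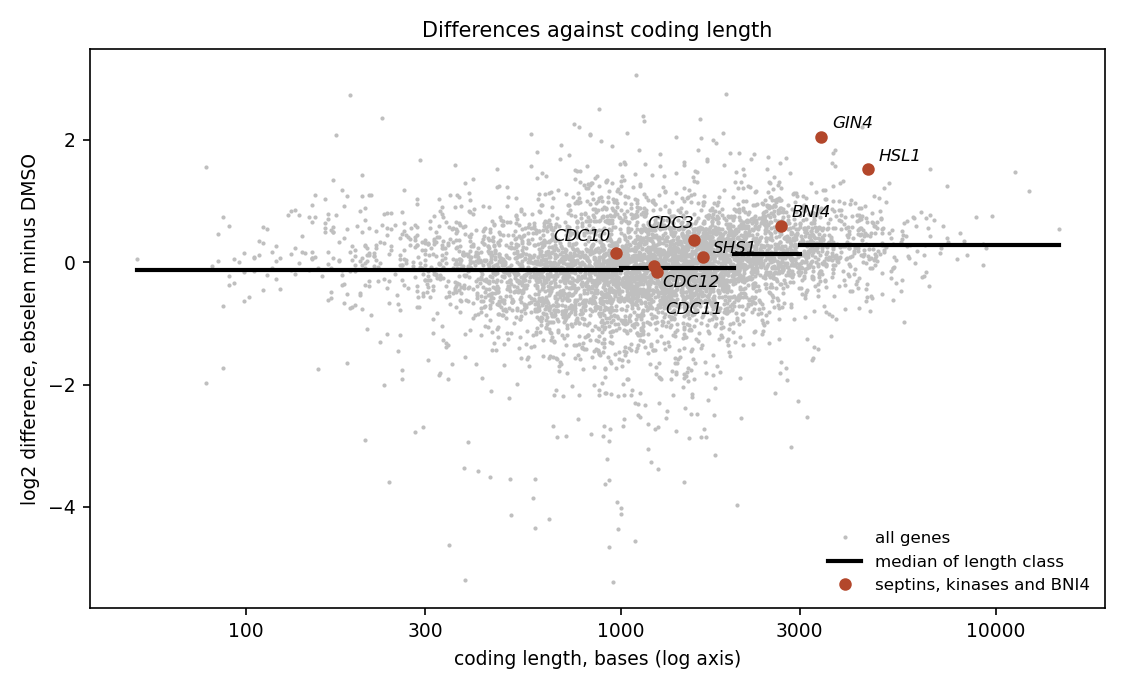
Log2 difference, ebselen minus DMSO (y axis), against coding length in bases (log x axis) for 5449 genes in grey and the 8 genes in red, with black bars at the median of 4 length classes. The class medians run from −0.13 for genes under 1000 bases to 0.28 for those of 3000 bases or more. GIN4 and HSL1, at 2.05 and 1.52, lie above the median of their class, and CDC3 at 0.36 lies above that of its own, −0.09.

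Scaling bore on the calls. The mean of 9 hybridization control probe sets, which detect foreign transcripts spiked in at hybridization, was 0.10 and 0.25 in the ebselen arrays, against −0.22 and −0.10 in the DMSO arrays, so scaling on them lowers every difference by 0.34. On that scale GIN4 was 1.72 and HSL1 was 1.18, both still higher, and after quantile normalization they were 2.84 and 1.93. With the hybridization controls, CDC11 (−0.50) and CDC12 (−0.39) then fell. SHS1 (−0.25) and CDC10 (−0.19) turned negative without passing, and the rises of BNI4 and CDC3 were lost. That scaling also adds the gaps between the controls of replicate arrays to every gene, so these calls do not reflect the shift alone. The limma adjusted p of GIN4 was 2.79e-36 on that scale, against 2.77e-05 as deposited. Adjusted p-values and calls on that scale are therefore not comparable with those as deposited. Over all genes that scaling moved the share of rises among the calls to 17.8%, against 45.9% as deposited. Changes are therefore to be read against the typical gene of these arrays.

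**Figure D4:**
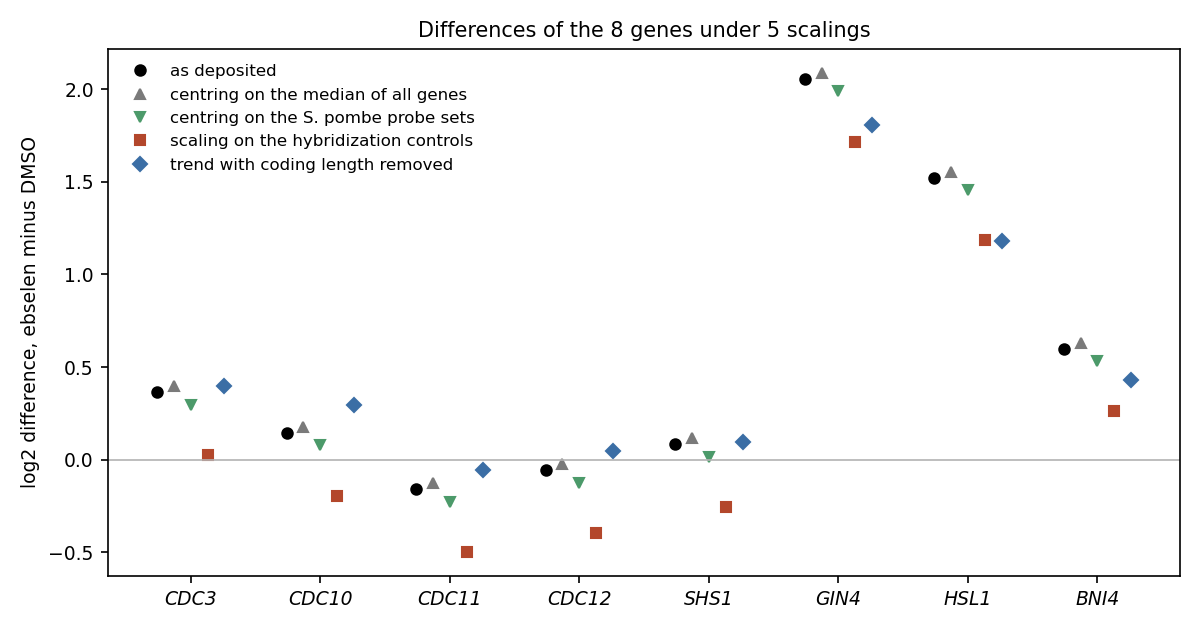
Log2 difference, ebselen minus DMSO (y axis), of the 8 genes as deposited and under 4 other treatments of the arrays, shown by marker shape and colour. GIN4 and HSL1 stay above 1 under each of these, while CDC10, CDC12 and SHS1 lie on different sides of 0 depending on the treatment.

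The rest of the neck was described with 39 genes in 7 lists drawn up by known role, with earlier results of these data known. Of these, 22 rose and 8 fell in the limma fit (56.4% and 20.5%, against 33.0% and 38.8% of all genes), with a median difference of 0.44. They were longer than most, with a median coding length of 2091 bases against 1236 over all genes, and 22 of the 39 had 2000 bases or more. With the length trend removed 21 rose and 9 fell (34.4% and 37.4% of all genes). With scaling on the hybridization controls 16 rose and 11 fell (12.3% and 56.7% of all genes). When a change also had to exceed the fission yeast 99th percentile, 16 rose and 1 fell (12.6% and 17.7% of all genes). The rises of CDC5, BNI5, AXL1, IQG1, CYK3 and BNR1 lay within that percentile. So did the falls of SPR28, DBF20, NAP1, RTS1, MIH1, MLC1 and CHS6. In the methods' t-test 19 rose and 6 fell (22.6% and 25.9% of all genes), and the rises of BUD4, HOF1 and BNR1 and the falls of NAP1 and MLC1 did not pass.

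The sporulation septins SPR3 and SPR28, which replace mitotic subunits in the rod during spore formation, both fell, as did 38.8% of all genes. SPR3 had a level of −0.55 and −0.48 in ebselen arrays, against 0.48 and 0.71 in DMSO arrays. Its difference was −1.11 ± 0.090 (limma adjusted p 0.00029). SPR28 had a level of −0.27 and −0.22 in ebselen arrays, against 0.22 and 0.30 in DMSO arrays, with a difference of −0.51 ± 0.057 (adjusted p 0.000853). The size of the SPR28 fall was within the 99th percentile of the fission yeast background.

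Of 6 other kinases that reach the neck, 4 rose and 1 fell (66.7% and 16.7%, against 33.0% and 38.8% of all genes). Besides KCC4, CLA4 rose by 0.91, which encodes the p21-activated kinase that acts on the septin ring at bud emergence. DBF2, the mitotic exit kinase, rose by 0.78 and CDC5, the polo kinase, by 0.44, although CDC5 did not pass with scaling on the hybridization controls (0.10). DBF20, the paralog of DBF2, fell (−0.31). ELM1, the kinase upstream of the Nim1 family at the neck, had a difference of 0.09 and did not pass (limma adjusted p 0.177).

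Of 6 regulators of septin assembly, 3 rose and 2 fell (50% and 33.3%, against 33.0% and 38.8% of all genes). The largest were the Cdc42 effectors that act in septin recruitment, GIC2 with 2.31 ± 0.095 and GIC1 with 1.90 ± 0.053. GIC1 was at 0.93 and 0.99 in ebselen arrays, against −0.93 and −0.95 in DMSO arrays. BNI5, which links myosin to the septin collar, rose by 0.23, a call lost without DMSO replicate 1 (0.20, limma adjusted p 0.0903), and had the opposite sign with scaling on the hybridization controls (−0.10). RTS1, a regulatory subunit of the phosphatase PP2A that acts on septins, fell (−0.38), and NAP1, a histone chaperone that binds Gin4, fell (−0.30). SYP1, an endocytic protein of the neck, differed by 0.13 and did not pass.

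All 4 axial landmark genes, whose products mark the old neck for the next bud, rose: AXL2 by 0.91, BUD3 by 0.83, BUD4 by 0.73 and AXL1 by 0.41. Their coding lengths had a median of 3985.5 bases. Of all genes 33.0% rose, and of the genes with 3000 bases or more 57.5% did. The rise of AXL1 did not pass with scaling on the hybridization controls (0.07). BUD4, an anillin-related septin binder, had ebselen replicates at 0.25 and 0.54, against −0.25 and −0.41 in DMSO.

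Of 5 genes of the morphogenesis checkpoint, 3 rose and 1 fell (60% and 20%, against 33.0% and 38.8% of all genes). SWE1, the Wee1-type kinase that Hsl1 opposes, had a level of 0.73 and 0.67 in ebselen arrays, against −0.97 and −0.67 in DMSO arrays. It rose by 1.52 ± 0.106 (limma adjusted p 0.000182), so SWE1 and HSL1 had differences of the same size to 2 decimals. HSL7, the Hsl1 partner, rose by 0.92, and CLB2, the mitotic cyclin, by 1.22. MIH1, the phosphatase that reverses Swe1, fell (−0.28). CDC28, the cyclin-dependent kinase, differed by 0.19 and did not pass as deposited (adjusted p 0.0566), but did as higher without DMSO replicate 2 (0.27, adjusted p 0.0411), after centring on the median of all genes (0.23), after quantile normalization (0.23) and with the length trend removed (0.35).

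Of 10 genes of the actomyosin ring and cytokinesis, 6 rose and 1 fell (60% and 10%, against 33.0% and 38.8% of all genes). CHS2, the chitin synthase of the primary septum, rose by 1.14, HOF1, the F-BAR protein that moves between septins and the ring, by 0.87, and MYO1, the heavy chain of the ring myosin, by 0.67. BNR1 (0.58), the formin held at the neck by septins, CYK3 (0.49) and IQG1 (0.48) also rose. BNR1 and IQG1 did not pass with the length trend removed (0.27 and 0.14), and BNR1, CYK3 and IQG1 did not with scaling on the hybridization controls (0.25, 0.15 and 0.14). MLC1, the myosin light chain, fell (−0.54). The other 3 did not pass, MLC2 at −0.17, INN1 at 0.05 and BNI1 at 0.07. MLC2 passed as lower after centring on the fission yeast probe sets (−0.23). Scaled on the hybridization controls, MLC2 (−0.50) and INN1 (−0.29) both passed as lower. BNI1 passed as lower with the length trend removed (−0.35, adjusted p 0.00211). BNI1 fell with the length trend removed (−0.35, limma adjusted p 0.00211).

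Of 6 genes of the chitin ring that Bni4 places, 2 rose and 1 fell. These were 33.3% and 16.7%, against 33.0% and 38.8% of all genes, so the share of rises was near that of all genes. CHS3, the catalytic subunit of chitin synthase III, rose by 1.03, and CHS7, which lets Chs3 leave the endoplasmic reticulum, by 0.86. CHS6, which helps carry Chs3 to the surface, fell (−0.26), a call lost without DMSO replicate 1 (−0.24, limma adjusted p 0.0534). SKT5, the activator that binds Bni4 to Chs3, differed by 0.33, CHS5 by 0.27 and the phosphatase gene GLC7 by −0.31, none of which passed. The count of rises was 4 without ebselen replicate 2 or without DMSO replicate 2, when SKT5 (0.46 and 0.48) and CHS5 (0.35 and 0.38) passed. GLC7 passed as lower without ebselen replicate 1 (−0.45, when 2 genes fell), without DMSO replicate 1 (−0.42), after centring on the fission yeast probe sets (−0.38) and when scaled on the hybridization controls (−0.65).

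Genes that mark phases of the cell cycle also differed between the groups. Over all genes 33.0% rose and 38.8% fell in the limma fit as deposited. All 6 markers of G1/S rose, with a median of 1.46 and a range from 0.86 (CLN2, a G1 cyclin) to 2.39 (CLB6, an S-phase cyclin). Their levels did not overlap between the groups, which also held for 86.6% of all genes, with ebselen above for 40.5%. Of 5 measured markers of G2/M, 3 rose, with a median of 0.38: CLB2, CDC5 and CLB1 (0.38, or 0.04 and not past the test with scaling on the hybridization controls). CDC20 (0.13) and SWI5 (−0.07) did not pass. CDC20 passed as higher without ebselen replicate 2 (0.23, limma adjusted p 0.0278), and SWI5 passed as lower with the length trend removed (−0.16, 0.0433) and with scaling on the hybridization controls (−0.41, 0.00375). Of 6 markers of M/G1, 0 rose and 4 fell, with a median of −0.36: SIC1 (−1.04), the inhibitor of S-phase cyclin kinase, ASH1 (−0.76), PCL9 (−0.56) and DSE1 (−0.17). CLN2, CLB1 and DSE1 did not pass in the methods' t-test. The changes of CDC5, CLB1, PCL9 and DSE1 lay within the fission yeast 99th percentile. The DSE1 call was also lost without ebselen replicate 1 (−0.14) without either DMSO array (−0.16 and −0.18) and after centring on the median of all genes (−0.14), and CTS1 (−0.02) and EGT2 (0.02) did not pass as deposited. With scaling on the hybridization controls all 6 M/G1 markers fell, as did 56.7% of all genes, whose median difference was then −0.37. The part of cell cycle stage in the values of the septins and kinases was not tested.

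**Figure D5:**
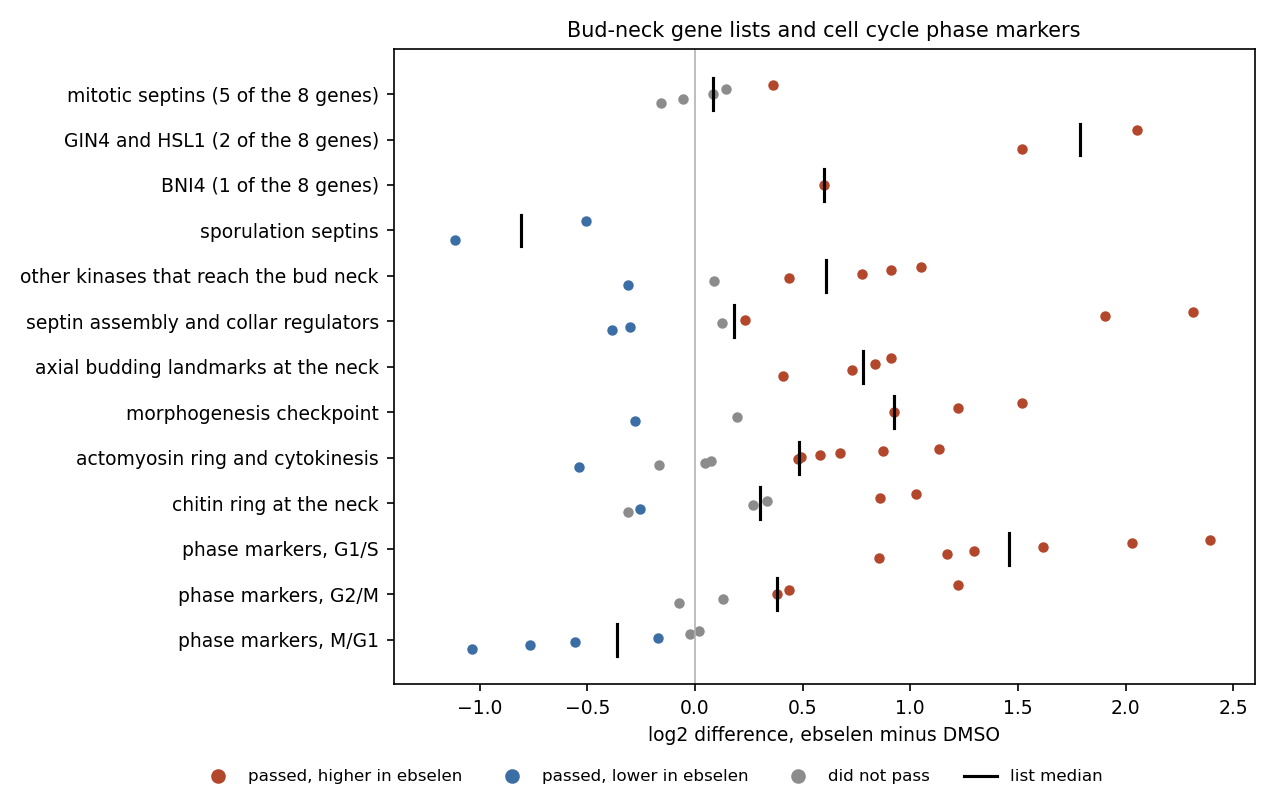
Log2 difference, ebselen minus DMSO (x axis), of every measured gene of each list, with red for genes that rose, blue for genes that fell, grey for genes that did not pass and a black bar at the list median. All G1/S markers and all axial landmarks lie right of 0, both sporulation septins lie left of it, and the 5 mitotic septins lie around 0.

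Genes outside the lists with the most similar profile were found by Euclidean distance over the 4 arrays, a measure that here mostly matches the size of the difference. To the mean of GIN4 and HSL1 the nearest were SMC3, a cohesin subunit (distance 0.053), ATF2, an acetyltransferase (0.074), MSH6, a mismatch repair protein (0.076), SPC97, a spindle pole component (0.077), and the ribosomal protein genes RPS10B (0.079) and RPL22B (0.116). Their differences ran from 1.69 (RPL22B) to 1.84 (MSH6). To the mean of the 5 septins the nearest were VTH1, USO1, SSY5, STE20, AZR1 and OAC1, at distances of 0.035 to 0.044. A total of 943 genes lay within 0.2 of the septin mean and 20 within 0.2 of the mean of GIN4 and HSL1, counting any of the 8 genes that did.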

How the data were processed

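Biotin-labelled yeast RNA was hybridized to 4 Affymetrix Yeast Genome 2.0 arrays, per the labels' protocols. The deposited values come from RMA, per the submitters' processing notes, and are read here as log2 expression; for the statistics the design text names GeneSpring 7.2 and a t-test, corrected after Benjamini and Hochberg. No source used here gives the log base, which was taken as 2, as RMA gives. Each probe set of the deposited table had a median of 0 over the 4 arrays (largest absolute median 5e-07), so absolute levels and a filter on dim probes could not be had. Of 10928 probe sets, 5498 were placed on 5449 genes through the platform annotation and a RefSeq table of assembly R64, which also gave coding length. Probe sets of a gene were averaged. Annotated probe sets without a gene in that table, and without several gene symbols, were taken as those of fission yeast, with no other check of species. The files name no build, so no coordinates are given.

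Groups were compared with limma 3.58.1 in R 4.3.3 (lmFit, eBayes, group as the only term, 2 residual and 3.13 prior degrees of freedom). In simulated data this fit recovered 30.7% of log2 changes of 0.3 and 62.1% of those of 0.5. The simulation changed 200 genes, far fewer than were called in these arrays, so its rates need not hold for them. Every measured gene of the lists is named or counted; likeness took the 6 nearest genes per profile. The genes and lists were chosen with earlier results of these data known. Alternatives were a replicate block, each array left out, other scalings, thresholds and features, removal of the length trend, robust eBayes and the methods' t-test. The number of arrays limits the precision. Figures were drawn with matplotlib 3.10.9.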

Additional observations from a re-analysis of the deposited data

How the results depend on the processing

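GIN4 and HSL1 kept their direction and their call under all 17 alternatives, with differences from 1.72 to 2.84 for GIN4 and from 1.18 to 1.93 for HSL1. The highest values came from quantile normalization, and the highest adjusted p, 0.0139 and 0.0252, from the methods' t-test. BNI4 ran from 0.26 to 0.66 and CDC3 from 0.03 to 0.49.

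The count of the 8 genes called higher was 2 with scaling on the hybridization controls, against 4 as reported. It was also 2 when a change had to exceed the fission yeast 99th percentile as well. Of all genes 12.3% and 12.6% were called higher in these settings, against 33.0% as reported. The count of the 8 genes called lower was 2 with scaling on the hybridization controls, against 0, while 56.7% of all genes were called lower, against 38.8%. With each array left out in turn, the difference of GIN4 ran from 1.98 to 2.13 and that of HSL1 from 1.40 to 1.64. BNI4 ran from 0.56 to 0.63, CDC3 from 0.23 to 0.49, CDC10 from 0.11 to 0.18 and CDC11 from −0.25 to −0.07. In the 39 other neck genes the count called lower was 1 above the fission yeast percentile, against 8. Of all genes 17.7% were then called lower, against 38.8%.

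Signs that turned, none of them a call as reported except BNI5, were as follows. With scaling on the hybridization controls these were CDC10 (−0.193), SHS1 (−0.253), ELM1 (−0.249), BNI5 (−0.105), SYP1 (−0.209), CDC28 (−0.143), INN1 (−0.289), BNI1 (−0.263), SKT5 (−0.00249), CHS5 (−0.0654), CDC20 (−0.205) and EGT2 (−0.316). With the length trend removed they were CDC12 (0.0493), SYP1 (−0.0339), BNI1 (−0.345) and EGT2 (−0.199). Centring on the fission yeast probe sets turned INN1 (−0.0181) and EGT2 (−0.0457), while quantile normalization and centring on the median turned CTS1 (0.0127 and 0.0104). With each array left out in turn, CDC12 ran from −0.181 to 0.0664, SHS1 from −0.0282 to 0.195, INN1 from −0.00419 to 0.1005, CTS1 from −0.0484 to 0.00422 and EGT2 from −0.0442 to 0.0853. The cause was not tested beyond the construction of each scaling.

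The replicate numbers pair nothing that the labels state, and same-numbered arrays deviated from their group means with r = −0.075 over 5449 genes. With the replicate number as a block, 4 of the 8 genes were called higher and 0 lower. Of the 39 neck genes 22 were higher and 8 lower, and both sets had the same counts as without the block. Over all genes 30.6% were higher and 36.2% lower with the block, against 33.0% and 38.8% without it. DSE1 lost its call (adjusted p 0.0701). Without a level for each probe set, signal over background could not be judged.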
